A study of Homo sapiens with 9 samples.

Results

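The regions described here are the binding sites of HP1γ and LSD1 that fell on chromosomes 2, 4, 18 and 22, autosomes with few peaks for their length. They were chosen as every peak on these 4 chromosomes in the lists for HP1γ at 0 min, HP1γ at 30 min, LSD1 at 0 min and LSD1 at 30 min, and they number 3964 of 111166 peaks in all. HP1γ had 882 of them at 0 min and 1130 at 30 min, and LSD1 had 677 at 0 min and 1275 at 30 min. Peak numbers therefore chose the regions, so numbers, densities and ratios of numbers are given below as a description. What the choice did not use directly is the position of a peak within its chromosome, its sequence, its score, its recurrence between lists, and the BPTF and H2A readouts. Shares of peaks are still taken over the low peak numbers that the choice used. A higher share of some kind of peak therefore does not mean that this kind was denser here than elsewhere.

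The cells were T47D-MTVL, a hormone-responsive breast cancer line with an integrated luciferase reporter under the promoter of mouse mammary tumour virus. They were held in hormone-stripped medium and then without serum, and were fixed untreated (0 min) or after R5020, a synthetic progestin, at 10 nM for 30 min, or for 60 min in the case of H2A. The series holds 9 chromatin immunoprecipitation libraries, 1 library per antibody and time, and no input library was analysed here. The depth behind the peak lists was unknown, so a change in peak number cannot be told apart from a change in depth or enrichment of a library, and no test between times was possible. Intervals are 95% Wilson intervals that cover the sampling of peaks only.

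HP1γ, the product of CBX3, is a chromodomain protein that reads methylated lysine 9 of histone H3 and is known from both silent heterochromatin and the bodies of active genes. LSD1, the product of KDM1A, removes methyl groups from lysine 4 of histone H3 and acts with the CoREST repressor complex. Heterochromatin is typically found at centromeres, next to telomeres and over repeats, and the sequence there is often hard to place uniquely.

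Some of the strongest peaks on these chromosomes lay on short repeats in tandem array, and sequences are shown because they carry that finding. The repeat near COLEC12 was a weaker peak, with a score of 46.67 and rank 9 on chromosome 18 in its list, and is shown as a further example. All windows are centred on a peak and are given on the + strand of GRCh37, and they were picked after their values were seen. In the window from KCNS3 the capitals mark the 20-base word that occurs most often. In those near WDR1, CLDN24, PER2 and COLEC12 they mark the first copy of the repeated unit, and in that from SHANK3 they mark TGTTCT, the half-site recognised by the progesterone receptor, on either strand.
KCNS3 intron, LSD1 30 min, chr2:18145193-18145342: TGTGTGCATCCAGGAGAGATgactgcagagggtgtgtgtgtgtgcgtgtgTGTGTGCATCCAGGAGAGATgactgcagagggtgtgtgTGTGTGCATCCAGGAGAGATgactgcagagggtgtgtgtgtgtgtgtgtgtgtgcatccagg
near WDR1, HP1γ 30 min, chr4:10136377-10136496: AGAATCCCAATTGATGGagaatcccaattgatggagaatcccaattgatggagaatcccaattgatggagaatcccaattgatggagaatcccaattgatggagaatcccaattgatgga
near CLDN24, LSD1 30 min, chr4:184258129-184258278: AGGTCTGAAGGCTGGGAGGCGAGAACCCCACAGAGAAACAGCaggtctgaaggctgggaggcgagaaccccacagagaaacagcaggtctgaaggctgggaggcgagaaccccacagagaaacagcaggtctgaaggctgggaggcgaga
near PER2, LSD1 30 min, chr2:239204960-239205109: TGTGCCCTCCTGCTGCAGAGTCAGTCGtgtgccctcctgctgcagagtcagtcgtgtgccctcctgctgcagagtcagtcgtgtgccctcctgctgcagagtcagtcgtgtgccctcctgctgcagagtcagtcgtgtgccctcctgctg
near COLEC12, HP1γ 0 min, chr18:514935-515084: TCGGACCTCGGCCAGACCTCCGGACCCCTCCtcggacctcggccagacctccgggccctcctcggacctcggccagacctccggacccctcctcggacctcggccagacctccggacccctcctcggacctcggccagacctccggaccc
SHANK3 intron, HP1γ 30 min, chr22:51120987-51121186: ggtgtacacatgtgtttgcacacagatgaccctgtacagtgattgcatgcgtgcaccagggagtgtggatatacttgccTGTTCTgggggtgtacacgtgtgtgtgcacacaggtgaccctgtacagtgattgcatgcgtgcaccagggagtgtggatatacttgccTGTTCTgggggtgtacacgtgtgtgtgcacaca

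Other strong peaks lay on sequence without a tandem array, and 3 of them are shown for contrast, with TGTTCT on either strand again in capitals, which occurs in the last of them only. The first held the highest HP1γ score on chromosome 4 at 0 min, the second the highest on chromosome 18, and the third the highest on chromosome 22. The third peak also overlapped a site to which BPTF was recruited, but that site ended before the window shown.
end of 4q, HP1γ 0 min, chr4:190603096-190603295: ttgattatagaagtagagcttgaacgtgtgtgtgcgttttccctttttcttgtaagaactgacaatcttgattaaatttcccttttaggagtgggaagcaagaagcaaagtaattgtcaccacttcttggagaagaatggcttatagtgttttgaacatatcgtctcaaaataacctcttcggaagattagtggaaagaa
near CABLES1, HP1γ 0 min, chr18:20685971-20686170: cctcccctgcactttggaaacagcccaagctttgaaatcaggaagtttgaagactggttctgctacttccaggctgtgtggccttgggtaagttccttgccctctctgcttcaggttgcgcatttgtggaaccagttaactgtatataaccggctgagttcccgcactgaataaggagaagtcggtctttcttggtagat
near GAB4, HP1γ 0 min, chr22:17513425-17513624: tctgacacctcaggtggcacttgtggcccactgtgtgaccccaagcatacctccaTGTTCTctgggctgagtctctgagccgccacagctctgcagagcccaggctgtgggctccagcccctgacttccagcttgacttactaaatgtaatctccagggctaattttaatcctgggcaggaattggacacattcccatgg

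Chromosomes 2, 4, 18 and 22 held 1.36 to 1.84 HP1γ peaks per Mb at 0 min, against a median of 10.3 over the other 18 autosomes. At 30 min they held 1.52 to 2.22 HP1γ peaks per Mb, against 7.81. LSD1 had 0.877 to 1.53 peaks per Mb on them at 0 min and 1.83 to 2.52 at 30 min, against medians of 11.0 and 7.02. Pooled over the 4 chromosomes, the density was lower than on the other autosomes by a factor of 8.51 and 4.86 for HP1γ and of 12.3 and 3.64 for LSD1, at 0 and 30 min in turn. These densities are per Mb of total length with gaps, and by them chromosome 4 was the densest of the 4 in every list. Per Mb of sequenced length chromosome 22 was denser than chromosome 4 for HP1γ at 0 min, at 2.01 against 1.87. By total length, chromosome 4 stood just inside the choice with 1.84 HP1γ peaks per Mb at 0 min. Just outside stood chromosome 19 with 1.91, followed by chromosome 13 with 3.66. Chromosome 19, at 0.812 LSD1 peaks per Mb at 0 min, and chromosome X, at 0.605 HP1γ peaks per Mb, were as poor in peaks but were not among the chromosomes chosen.

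**Figure D1:**
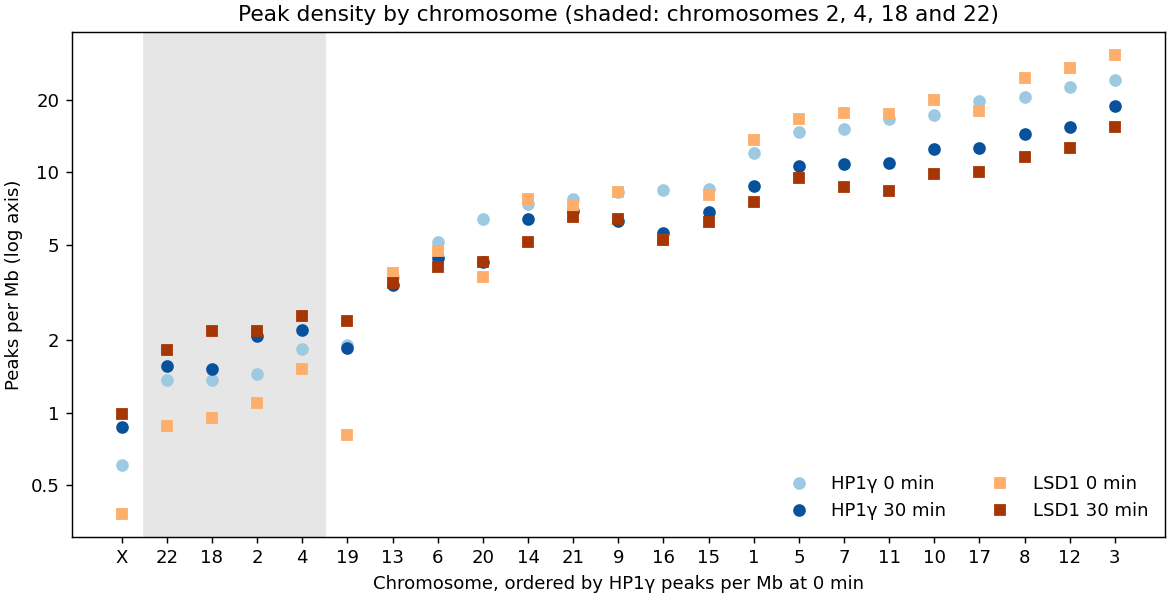
Peaks per Mb of chromosome length (log axis) for each autosome and X, ordered by the HP1γ density at 0 min, with 1 point per list. The shaded chromosomes 22, 18, 2 and 4 lie at 0.877 to 2.52 peaks per Mb over the 4 lists, near chromosomes X and 19 and below the other 17 autosomes.

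The number of peaks moved in opposite directions on these chromosomes and on most others. HP1γ went from 354 to 507 peaks on chromosome 2, from 351 to 424 on chromosome 4, from 107 to 119 on chromosome 18 and from 70 to 80 on chromosome 22. All 4 chromosomes had more peaks at 30 min, 1.28 times as many when pooled, while the other 18 autosomes had fewer, at 0.636 (chromosome 17) to 0.973 (chromosome 19) times the number at 0 min. LSD1 went from 266 to 530 peaks on chromosome 2, from 292 to 481 on chromosome 4, from 74 to 170 on chromosome 18 and from 45 to 94 on chromosome 22. That is 1.88 times as many when pooled, whereas 15 of the other 18 autosomes had fewer LSD1 peaks, 1 had the same number and 2, chromosomes 19 and 20, had more. Chromosome X also had more peaks at 30 min, with ratios of 1.45 for HP1γ and 2.61 for LSD1. Chromosome 19 had ratios of 0.973 for HP1γ and 2.98 for LSD1. The direction for LSD1 was thus shared by both peak-poor chromosomes outside the choice, and that for HP1γ by chromosome X only.

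**Figure D2:**
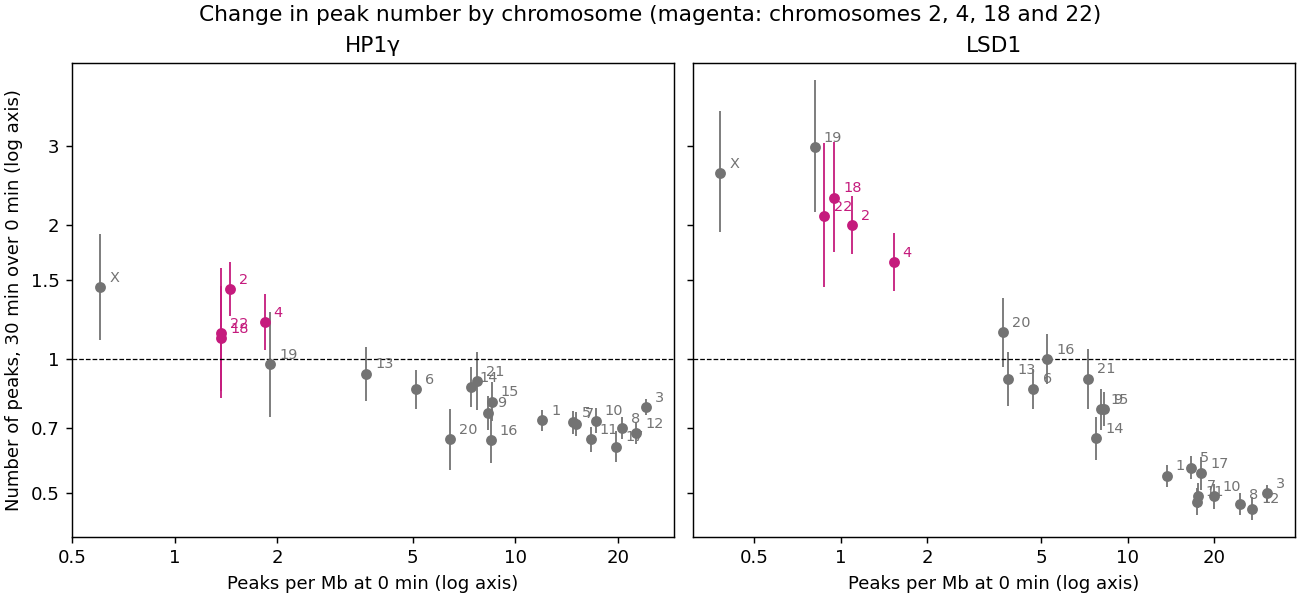
Number of peaks at 30 min over that at 0 min (log axis) against peaks per Mb at 0 min (log axis) for each chromosome, HP1γ left and LSD1 right, with exact 95% intervals over peaks as bars. Chromosomes 2, 4, 18 and 22 (magenta) lie above 1 in both panels, between 1.11 and 1.43 for HP1γ and between 1.65 and 2.30 for LSD1. The HP1γ bars of chromosomes 18 and 22 cross 1. Both axes share the count at 0 min.

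The added LSD1 peaks included many on sequence that occurs more than once in the genome. A peak was called repeated where at least 50% of its 32-base words, taken every 10 bases, had another copy in GRCh37. Repeated LSD1 peaks on the 4 chromosomes numbered 101 at 0 min and 396 at 30 min, and the rest went from 576 to 879. On the other autosomes repeated LSD1 peaks went from 1219 to 2882 while the rest fell in number from 33035 to 16184. On sequence that was not repeated, the number at 30 min was thus 1.53 times that at 0 min on the 4 chromosomes and 0.490 times elsewhere, which describes counts that the choice of chromosomes had used. HP1γ showed no such split on the 4 chromosomes, with 159 repeated peaks at 0 min and 207 at 30 min, and 723 and 923 others. On the other autosomes it did, as repeated HP1γ peaks went from 1784 to 1922 while the rest fell in number from 29085 to 20648.

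Repeated sequence was more frequent in these peaks than in peaks of the other autosomes pooled, although it was not more frequent in the chromosomes themselves. The peak-poor chromosomes 19 and X were not read alone for repeated sequence or tandem repeats. Neither trait is therefore shown to be particular to these 4 chromosomes. It held 159 of 882 HP1γ peaks at 0 min (interval 15.6% to 20.7%), 18.3% at 30 min (16.2 to 20.7), 14.9% of LSD1 peaks at 0 min (12.4 to 17.8) and 31.1% at 30 min (28.6 to 33.7). Over each whole list the shares were 6.17%, 9.13%, 3.79% and 16.4%, and on the other autosomes 5.78%, 8.52%, 3.56% and 15.1%. Windows of 300 bp placed every 20 kb were repeated in 11.0% of cases on the 4 chromosomes and 12.4% on the other autosomes. Peaks on the other autosomes were thus below the genome windows in 3 of the 4 lists, and the peaks described here were above them in all 4 when pooled. By chromosome this did not hold everywhere: on chromosome 4, 6.85% of LSD1 peaks at 0 min were repeated (interval 4.48% to 10.3%), beside 9.83% of its windows. Chromosome 22 had the highest shares, 35.7% and 33.8% for HP1γ and 33.3% and 60.6% for LSD1 at 0 and 30 min, beside 17.2% of its windows.

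Tandem repeats, called where the central 300 bp matched itself in at least 75% of positions at some shift of 5 to 150 bases, were rare, and at 30 min they were more frequent among strong peaks. They held 15 HP1γ peaks at 0 min (1.70%), 21 at 30 min (1.86%), 0 of 677 LSD1 peaks at 0 min (upper Wilson limit 0.564%) and 27 LSD1 peaks at 30 min (2.12%). The shares on the other autosomes were 0.431%, 0.558%, 0.0817% and 0.839%, and over the whole lists 0.474%, 0.625%, 0.08% and 0.951%, beside 0.198% of windows on the 4 chromosomes and 0.202% elsewhere. The units were 17 to 117 bases long, with medians of 39, 48 and 38 in the 3 lists that had any. Among LSD1 peaks at 30 min with a score of at least 50, 11 of 55 were tandem repeats (interval 11.6% to 32.4%), against 5.15% over that whole list and 4.38% on the other autosomes. So were 8 of 62 HP1γ peaks at 30 min (12.9%), against 1.95% and 1.68%. At 0 min, 1 of 40 HP1γ peaks and 0 of 31 LSD1 peaks of that score were tandem repeats, against 1.28% and 0.177% of the whole lists.

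**Figure D3:**
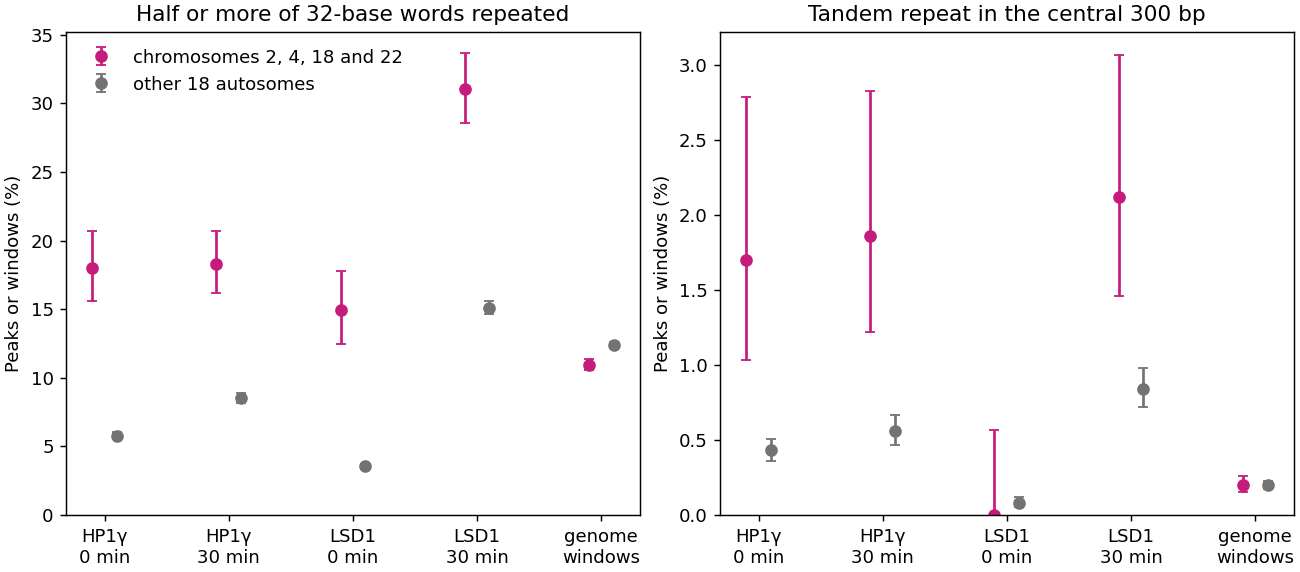
Share of peaks on repeated sequence (left) and on a tandem repeat (right) per list, for chromosomes 2, 4, 18 and 22 (magenta) and the other 18 autosomes (grey), beside genome windows of 300 bp, with Wilson 95% intervals. The magenta points lie above the grey in every list except LSD1 at 0 min in the right panel, where no peak was a tandem repeat, while the windows are near 11.0% and 12.4% on the left and near 0.198% and 0.202% on the right.

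The KCNS3 peak, whose window is shown above, illustrates the class. It covered chr2:18144823-18145713 in an intron of KCNS3, which encodes a modifier subunit of voltage-gated potassium channels, and its score of 138.83 ranked 4 among all LSD1 peaks at 30 min. The score is the authors' own and is read here within a list only. The strongest HP1γ peak on chromosome 4 at 30 min, score 89.96, was the 17-base repeat 17559 bp from the start of WDR1, which encodes an actin-disassembly factor. The strongest LSD1 peak on chromosome 4 at that time, score 77.14, was the 42-base repeat 14230 bp from CLDN24, a claudin gene. In an intron of SHANK3, which encodes a postsynaptic scaffold, an 88-base repeat had an HP1γ score of 64.74 at 30 min. BRD1, which encodes a scaffold of a histone acetyltransferase complex, held a 47-base repeat with an LSD1 score of 50.17 in an intron.

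Peaks on the 4 chromosomes gathered towards chromosome ends and assembly gaps of at least 100 kb, which include the centromeres. Within 1 Mb of an end or gap lay 12.4% of HP1γ peaks at 0 min, 9.56% at 30 min, 14.2% of LSD1 peaks at 0 min and 12.3% at 30 min, on 4.85% of the sequence. Over the whole lists the shares were 5.21%, 6.1%, 4% and 7.56%, and on the other autosomes 5.00%, 5.93%, 3.79% and 7.25% of peaks lay on 5.45% of the sequence. Peak density near ends and gaps was 2.77, 2.07, 3.24 and 2.76 times that farther away on the 4 chromosomes, and 0.913, 1.09, 0.682 and 1.35 times elsewhere, in the same order of lists. It was nevertheless lower than near the ends and gaps of the other autosomes. There were 4.20, 4.16, 3.70 and 6.05 such peaks per sequenced Mb here, against 13.2, 11.4, 11.1 and 11.8 there. The gathering is thus relative to the sparse rest of these chromosomes. Chromosome 4 had the steepest contrast at 7.84, 4.47, 7.20 and 3.35 times. The HP1γ peaks near ends and gaps did not follow the rest in number: they went from 109 to 108 while those farther away went from 773 to 1022. LSD1 went from 96 to 157 near ends and gaps and from 581 to 1118 farther away.

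**Figure D4:**
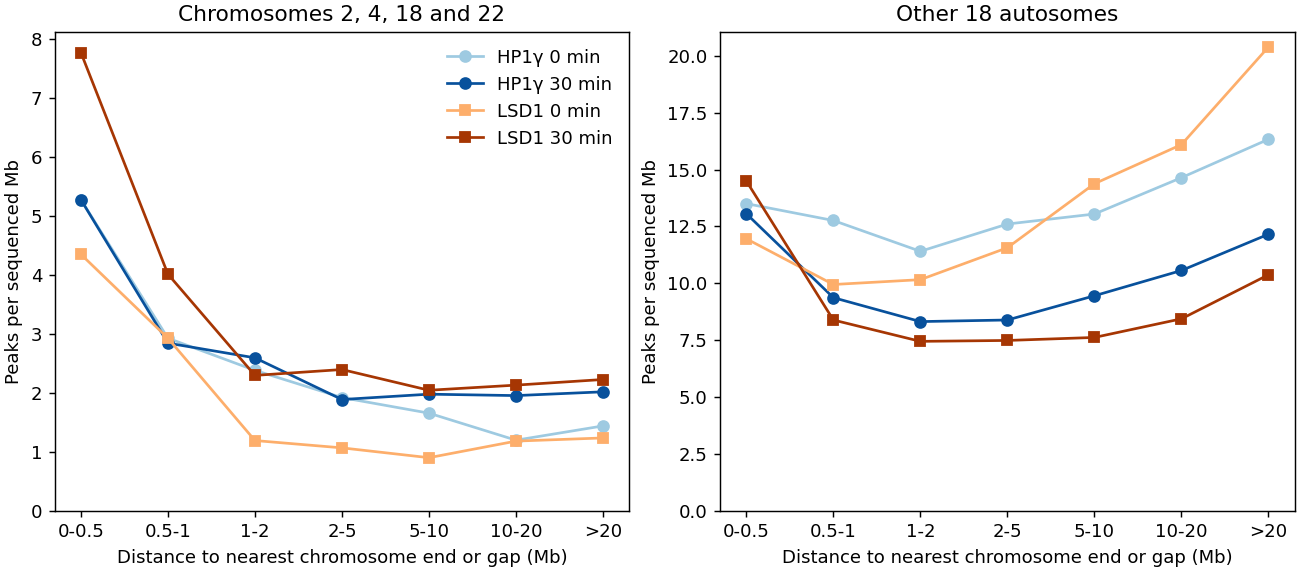
Peaks per sequenced Mb against distance to the nearest chromosome end or gap, for chromosomes 2, 4, 18 and 22 (left) and the other 18 autosomes (right), on separate vertical scales that start at 0. On the left all 4 lists are highest in the first 0.5 Mb, at 4.35 to 7.78 peaks per Mb. On the right that bin is at 12.0 to 14.5, and HP1γ and LSD1 at 0 min are highest beyond 20 Mb, at 16.3 and 20.4.

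The end of the long arm of chromosome 4 stood out. Its last 1.04 Mb of sequence held 32 HP1γ peaks at 0 min and 21 at 30 min, and 30 LSD1 peaks at 0 min and 17 at 30 min. Densities there were 17.9, 9.31, 20.5 and 6.55 times those of the rest of chromosome 4, so the number fell for both proteins where the chromosome as a whole gained peaks. Of 16 HP1γ peaks with a score of at least 50 on chromosome 4 at 0 min, 7 were in this segment, as were 8 of 14 LSD1 peaks. At 30 min the segment held 3 of 26 such HP1γ peaks and 2 of 26 LSD1 peaks. The segment contains FRG1 and DUX4, genes of the facioscapulohumeral dystrophy region next to the telomere. FRG1 itself had an HP1γ peak at its start at 30 min, chr4:190860607-190861529, with a score of 46.02. Repeated peaks were a minority there, 31.3% and 14.3% for HP1γ and 10.0% and 11.8% for LSD1.

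Other dense segments were the start of the short arm of chromosome 4 and the flanks of 2 centromeres. The first 5 Mb of chromosome 4 held 47 and 34 HP1γ peaks and 17 and 34 LSD1 peaks at 0 and 30 min, of which at most 20.6% were repeated. On chromosome 22, 3 Mb next to the centromere held 21 and 16 HP1γ peaks and 15 and 22 LSD1 peaks, out of 70, 80, 45 and 94 on that chromosome, and 53.3% to 90.9% of them were repeated. On the short-arm side of the centromere of chromosome 2, 7 and 17 HP1γ peaks and 13 and 26 LSD1 peaks lay on 0.731 Mb of sequence, and 71.4% to 88.5% of them were repeated. The dense segments therefore differed in sequence: the ends of chromosome 4 were mostly unique, and the flanks of the centromeres mostly repeated. Segment bounds were chosen after the windows were seen.

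Strong peaks were concentrated in these settings. The shares with a score of at least 50 were low, 4.54% and 5.49% for HP1γ and 4.58% and 4.31% for LSD1 at 0 and 30 min, against 10.5%, 10.3%, 14.5% and 8.34% over the whole lists. Of these strong peaks, 19 of 40, 29 of 62, 20 of 31 and 34 of 55 were near an end or gap, on repeated sequence or on a tandem repeat. Those 3 settings took 10.2%, 15.1%, 6.11% and 28.4% of strong peaks over the whole lists, and 9.73%, 14.0%, 5.73% and 444 of 1645 on the other autosomes. Weaker peaks on the 4 chromosomes were also often in them. For HP1γ at 0 min the shares were 22.2% at scores of 30 to 40 and 31.9% at 40 to 50, against 9.63% and 9.15% on the other autosomes. Median scores on the 4 chromosomes were 33.9 and 36.5 for HP1γ and 33.9 and 35.3 for LSD1, against 35.7, 37.4, 36.3 and 36.2 elsewhere, and median widths were 445, 435, 481 and 429 bp against 470, 443, 538 and 438 bp. At 0 min the HP1γ medians of score and width on each of the 4 chromosomes were below those of all 18 other autosomes.

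Few sites recurred. Of 882 HP1γ peaks at 0 min, 12 overlapped an HP1γ peak at 30 min by at least 1 bp (1.36%, interval 0.780 to 2.36), against 4.31% of the whole list. Of 677 LSD1 peaks at 0 min, 11 overlapped one at 30 min (1.62%, 0.910 to 2.89), against 3.71%. Taken from the later lists, 12 of 1130 HP1γ peaks (1.06%) and 13 of 1275 LSD1 peaks (1.02%) overlapped an earlier one, against 5.76% and 6.38%. The lists also covered less of these chromosomes: HP1γ peaks at 30 min took up 0.0891% of their length and 0.457% of the other autosomes, and LSD1 peaks at 30 min 0.101% and 0.380%. Shares of overlap between lists therefore cannot be told apart from the lower density of peaks to overlap with.

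Peaks of HP1γ and LSD1 also overlapped in a small share, on chromosomes with few peaks to overlap with. At 0 min, 9 of 677 LSD1 peaks overlapped an HP1γ peak (1.33%, 0.701 to 2.51), against 7.08% of the whole list, and 9 of 882 HP1γ peaks overlapped an LSD1 peak (1.02%), against 7.83%. At 30 min, 17 of 1275 LSD1 peaks (1.33%, 0.834 to 2.12) and 18 of 1130 HP1γ peaks (1.59%) overlapped the other protein, against 3.56% and 3.08%. On the other autosomes the shares of LSD1 peaks were 7.21% at 0 min and 3.73% at 30 min, and no difference between times was tested. HP1γ peaks covered 0.0720% of the chosen chromosomes and 0.690% of the other autosomes at 0 min, and 0.0891% and 0.457% at 30 min. The lower shares therefore cannot be told apart from the lower density of peaks here either.

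**Figure D5:**
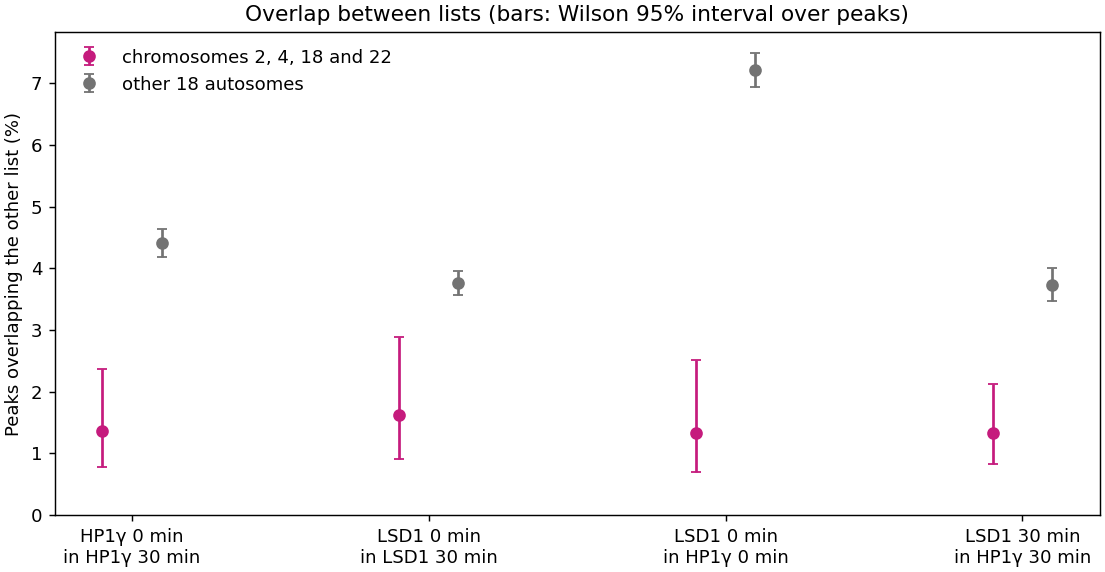
Share of peaks that overlap a peak of another list by at least 1 bp, for chromosomes 2, 4, 18 and 22 (magenta) and the other 18 autosomes (grey), with Wilson 95% intervals. The magenta points lie between 1.33% and 1.62% and the grey points between 3.73% and 7.21%.

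Merged over the 4 lists, the peaks formed 3896 sites, of which 60 were in more than 1 list, 4 were in 3 lists and 0 were in all 4. Of the 60 shared sites, 33 were within 1 Mb of an end or gap and 29 were repeated, 12 were in the body of a protein-coding gene and 0 were at a promoter. Over all peaks of the 4 lists on these chromosomes the shares, by list, were 9.56% to 14.2% near an end or gap, 14.9% to 31.1% repeated, 38.4% to 43.8% in a gene body and 2.20% to 3.06% at a promoter, so that 0 of 60 at promoters is too few sites to read. Chromosome 4 held 32 of them, chromosome 2 held 20, chromosome 18 held 5 and chromosome 22 held 3. All but 1 of the sites in 3 lists lay at the end of 4q. The site at chr4:190668523-190669960 had scores of 32.93 for HP1γ at 0 min, 89.81 for LSD1 at 0 min and 45.79 for LSD1 at 30 min. Another, chr4:190501376-190502476, was in the same 3 lists with scores of 33.53, 37.67 and 34.8. The site nearest the telomere, chr4:191024876-191026203, was 19309 bp from the start of DUX4 and was in both HP1γ lists and the LSD1 list at 0 min.

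The remaining site in 3 lists was the 27-base repeat shown above, chr2:239204621-239205403, which lay 5878 bp from the start of PER2, a repressor of the circadian clock. It scored 44.62 and 32.48 for HP1γ at 0 and 30 min and 66.6 for LSD1 at 30 min. Sites that HP1γ kept from 0 to 30 min included the highest-scored HP1γ peaks at 0 min of 3 of the 4 chromosomes. On chromosome 2 this was chr2:95590535-95591485, 53360 bp from the start of TEKT4, a gene of the ciliary axoneme, with scores of 98.82 and 33.61. On chromosome 4 the site at chr4:190602774-190604073 scored 88.15 and 40.61. On chromosome 18 the site at chr18:20685417-20686359, 28169 bp from CABLES1, a regulator of cyclin-dependent kinases, scored 67.43 and 40.66. The 31-base repeat near COLEC12, a scavenger receptor gene, was kept as well, with scores of 46.67 and 41.68.

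The strongest LSD1 peak on chromosome 2 at 0 min, score 103.47, lay near the centromere at chr2:91810596-91811564 and was in no other list. Chromosome 18 had the weakest maximum of that list, 44.76, at 94413 bp from the start of NEDD4L, which encodes a ubiquitin ligase of sodium channels. On chromosome 22 the maximum was 64.08 at the promoter of XKR3. At 30 min the LSD1 maxima of chromosomes 18 and 22 were 58.53, 16250 bp from TUBB8B, a tubulin gene at the end of the short arm, and 78.08, 56437 bp from CCT8L2. HP1γ at 30 min peaked on chromosome 2 at 70.62 beside the centromere, on chromosome 18 at 59.04 in an intron of LOXHD1, a gene of the inner-ear hair cell, and on chromosome 22 at 69.79.

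Promoters, taken as the 1 kb before and after the start of a protein-coding gene, held few of the peaks. They held 27 HP1γ peaks at 0 min (3.06%, interval 2.11 to 4.42), 32 at 30 min (2.83%, 2.01 to 3.97), 18 LSD1 peaks at 0 min (2.66%, 1.69 to 4.16) and 28 at 30 min (2.20%, 1.52 to 3.16), on 1.95% of the sequence. The whole lists had 4.31%, 3.68%, 2.66% and 2.9%. The highest-scored promoter peaks of HP1γ at 0 min included those at APOBEC3H, a cytidine deaminase that restricts retroelements (41.47), GCA, which encodes the calcium-binding protein grancalcin (41.29), PLEKHB2 (38.31) and SLC30A3, a zinc transporter (37.87). At 30 min they were at KLF7, a zinc finger transcription factor (52.88), TTC30A, of intraflagellar transport (49.37), SP140L (48.57), SLAIN2, a microtubule-end protein (47.83), and FRG1. The genes named at 0 min and those named at 30 min had none in common, but they are too few to read. Of all HP1γ peaks at 0 min on these chromosomes, 1.36% overlapped one at 30 min, against 4.31% of the whole list.

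LSD1 promoter peaks at 0 min scored highest at XKR3, followed by the start shared by TIGD1 and EIF4E2, a cap-binding translation repressor (48.71), NOCT, which encodes nocturnin (45.52), NSD2, a methyltransferase of lysine 36 of histone H3 (39.57), and ELP2, an Elongator subunit (36.22). At 30 min they were at YIPF7 (52.15), COBLL1 (49.0), IL36RN, the antagonist of the interleukin-36 receptor (44.35), TXK, a kinase of the Tec family (44.27), and the shared start of WDR7 and TXNL1, a thioredoxin-like protein (43.35).

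Bodies of protein-coding genes held 38.4% of HP1γ peaks at 0 min (interval 35.3 to 41.7), 41.5% at 30 min (38.7 to 44.4), 42.1% of LSD1 peaks at 0 min (38.4 to 45.9) and 43.8% at 30 min (41.1 to 46.5), on 42.5% of the sequence. The whole lists had 47.5%, 47%, 49.2% and 47%, with gene bodies on 47.5% of the other autosomes. HP1γ at 0 min was thus below the share of sequence in genes and the other 3 lists were within their interval of it. Chromosome 4, with 3.98 protein-coding genes per Mb, and chromosome 22, with 8.77, held 1.84 and 1.36 HP1γ peaks per Mb of total length at 0 min. Per Mb of sequenced length they held 1.87 and 2.01, so the order of these chromosomes in peaks depended on the length used. The median GC content of the peaks was 43.3% and 40% for HP1γ and 37.5% and 39.4% for LSD1 at 0 and 30 min, against 42.0%, 38.9%, 37.6% and 38.0% on the other autosomes.

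Genes with the most peaks were long. HP1γ had 4 peaks at 0 min in or within 5 kb of C4orf50, APBB2, an adaptor of the amyloid precursor protein, and TENM3, a teneurin of neuronal wiring. At 30 min it had 6 in LRP1B, a very long lipoprotein receptor gene, 5 in ENSG00000282278 and 4 in SPAG16. LSD1 at 0 min had 6 peaks in ANKRD36C and 5 in ANKRD36, near-identical genes beside the centromere of chromosome 2 whose reads cannot be told apart with certainty. At 30 min it had 5 each in PRKCE, a protein kinase C, PARD3B, a polarity gene, and LRP1B. The share of genes with a peak in any list grew from 11.5% of genes under 10 kb to 96.4% of genes of 500 kb or more, while peaks per Mb of gene went from 8.34 to 5.91, so counts per gene followed length.

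Read against 38.2% of all 2730 protein-coding genes of the 4 chromosomes with a peak in any list, at a median length of 41.0 kb, 7 of 9 lists had higher shares, and 6 of those 7 had longer genes. Hormone response and receptor genes had a peak in 10 of 19 (median length 54.7 kb). Among them GREB1, an estrogen-induced growth regulator, had 1 HP1γ peak at each time and 1 LSD1 peak at 30 min. SRD5A2, a steroid reductase that acts on testosterone and progesterone, had 1 HP1γ peak at 30 min and 1 LSD1 peak at 0 min. Growth factor and kinase genes had a peak in 13 of 23 (69.0 kb), with 1 and 4 HP1γ and 2 and 1 LSD1 peaks in ERBB4, an EGF-family receptor. SMAD and BMP signalling genes had a peak in 7 of 13, among them BMPR1B and SMAD2.

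Chromatin regulator genes had a peak in 15 of 25 (median length 110.8 kb). By list, 6 and 6 of them had an HP1γ peak and 5 and 13 an LSD1 peak at 0 and 30 min, against 341, 442, 269 and 493 of all 2730 genes. INO80D, which encodes a subunit of the INO80 remodeller, had 1 HP1γ peak at 0 min and 3 LSD1 peaks at 30 min, and NSD2 and TET2, a DNA demethylase, had 4 and 3 peaks over the lists. Genes of ADP-ribose metabolism had a peak in 3 of 6, at a median length of 36.1 kb and 13.6 peaks per Mb over the lists, against 7.37 for all genes. NUDT9, an ADP-ribose pyrophosphatase, had 2 LSD1 peaks at 30 min, and XRCC5, the large Ku subunit, had 1 HP1γ peak at 30 min. Cell survival and cell cycle genes had a peak in 13 of 21, at 46.6 kb and 13.1 peaks per Mb, with 3 HP1γ peaks at 30 min in CCNG2 and 2 in BCL2. Of the HOXD cluster genes, 1 of 10 had a peak (median length 3.11 kb), and of milk protein genes, 1 of 7. Very long neuronal genes had a peak in 18 of 22, at 5.79 peaks per Mb, and the remaining 6 lists had 5.72 to 9.13.

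Motifs occurred in these peaks at shares near those of the chromosomes. The full palindromic progesterone response element was in the central 300 bp of 1 HP1γ peak at 0 min and of 0 peaks in the other 3 lists. It was in 2 of 30869, 2 of 22570, 3 of 34254 and 1 of 19066 peaks on the other autosomes, so these counts are too low to compare. The half-site TGTTCT, which is also part of the palindrome, was found on either strand in 22.1% and 26.5% of HP1γ peaks and 26.1% and 24.0% of LSD1 peaks at 0 and 30 min, beside 23.6% of windows of 300 bp on the same chromosomes. The E-box CACGTG, which reads alike on both strands, was found in 3.51%, 2.48%, 2.95% and 2.35%, beside 2.60%. A match only says that these letters occur there.

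BPTF, the chromatin-reading subunit of the NURF remodeller, was also sparse on these chromosomes. Of 5546 sites from which BPTF was displaced with hormone, by the authors' lists, 235 lay on them, or 0.417 per Mb against 2.29 on the other autosomes. Of 1848 sites to which it was recruited, 109 lay on them, or 0.193 per Mb against 0.747. Chromosome 22 had 8 displaced and 10 recruited sites, while chromosome 4 had 106 and 41. The choice had not used the sites of this antibody. Chromosomes outside the choice were as low: chromosome 19 had 0.0676 displaced sites per Mb, fewer than any of the 4, chromosome 13 had 0.182 recruited sites per Mb, and chromosome X had 0.0966 and 0.0515.

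Displaced BPTF sites on the 4 chromosomes overlapped 1 HP1γ peak at 0 min and 0 at 30 min, and 0 LSD1 peaks at 0 min and 2 at 30 min, or 0.426%, 0%, 0% and 0.851% of the 235 sites. Over all displaced sites the shares were 4.13%, 2.49%, 5.37% and 2.27%. Recruited sites overlapped 2 and 1 HP1γ peaks and 0 LSD1 peaks at either time, or 1.83%, 0.917%, 0% and 0% of 109 sites, against 5.03%, 2.87%, 3.46% and 1.89%. A count of 0 allows up to 1.61% of displaced and 3.40% of recruited sites by the Wilson interval. At 0 min, HP1γ peaks covered 0.0720% of the 4 chromosomes and 0.690% of the other autosomes, and LSD1 peaks 0.0619% and 0.870%. The lower shares of BPTF sites with a peak therefore cannot be told apart from the lower density of peaks. The displaced sites with a peak were in an intron of NUP35, a nucleoporin gene (HP1γ score 31.85), 81631 bp from TMEM18 (LSD1, 31.36) and in FRG1-DT, upstream of FRG1 (LSD1, 42.33). The recruited sites with a peak were 14648 bp from CCDC85A (HP1γ at 0 min, 31.19), 23968 bp from GAB4 (HP1γ at 0 min, 88.55) and at the promoter of MRFAP1 (HP1γ at 30 min, 42.33). The peak near GAB4 was the strongest HP1γ peak of chromosome 22 at 0 min.

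Histone H2A over genes was read from other libraries than the peak lists, in the same cell line and again without an input library. Its level in RPKM, a read count scaled by gene length and library size, grew with the number of annotated transcripts of a gene, so levels are given per transcript. Transcripts were counted in GENCODE version 44, whereas the authors counted RPKM over version 18. The part of that difference in the levels was not tested. At 0 min the median level per transcript was 0.253 on chromosome 4, 0.268 on chromosome 18, 0.286 on chromosome 2 and 0.338 on chromosome 22. The other autosomes ranged from 0.272 (chromosome 13) to 0.577 (chromosome 17) with a median of 0.435, chromosome 19 was at 0.322 and chromosome X at 0.175. The 4 chromosomes thus lay in the lower part of the range in H2A as well, overlapping the other autosomes, and the part of H2A in the low peak density was not tested.

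The change of H2A with hormone was small on these chromosomes. The median log2 ratio of RPKM plus 0.05 at 30 over 0 min, over the 2702 genes whose mean RPKM reached 0.1, was -0.06, against -0.16 for 16275 genes of the other autosomes and -0.14 for all genes. The 4 chromosomes differed among themselves, at 0.06 on chromosome 4, 0.00 on chromosome 18, -0.07 on chromosome 2 and -0.25 on chromosome 22, and their genes had median GC contents of 39.2%, 41.5%, 42.4% and 52.1%. The part of GC content in this order was not tested. Past 0.5 either way, 12 genes were higher (0.444%, against 0.345% of all genes) and 40 lower (1.48%, against 1.99%). At 60 min, which shares the 0 min library, the median was -0.01, with 7 genes higher (0.259%, against 0.249%) and 17 lower (0.629%, against 0.639%).

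Genes of the 4 chromosomes with an HP1γ or LSD1 peak in any list had a median H2A change of 0.00 at 30 min (948 genes, quartiles -0.13 and 0.15), and those without one had -0.12 (1754 genes, -0.25 and 0.07). The genes with a peak were longer, with medians of 78.9 kb against 20.5 kb, and lower in GC, 40.3% against 44.7%, and the part of either was not tested. Named genes followed no common direction. ERBB4 had H2A values of 1.89, 2.35 and 1.98 RPKM at 0, 30 and 60 min, a log2 change of 0.31 at 30 min. GREB1 had 3.50, 2.97 and 3.38 RPKM, a change of -0.23, and PER2 had 2.41, 1.92 and 2.22 RPKM, a change of -0.32. KCNS3, whose intron held the highest-scored LSD1 peak of the 4 chromosomes at 30 min, had 1.28, 1.28 and 1.30 RPKM. In each of these genes the value at 60 min was nearer to that at 0 min than the value at 30 min was, except in KCNS3, where all 3 were within 0.03 on the log2 scale. The same held for the median change over all genes, which was -0.14 at 30 min and -0.03 at 60 min.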

How the data were processed

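HP1γ and LSD1 peaks were used as deposited, with positions and a score per peak that the authors gave (lowest value 30). Each list came from 1 library. The score's definition, the peak caller and its threshold are not given in the sources used here. Bowtie 1.0.0, HOMER 4.7.2 and hg19 (GRCh37) are named in the submitters' processing notes. The BPTF positions were deposited by the authors without a score. The H2A table holds RPKM per gene that the authors counted over GENCODE version 18 with HOMER, per the file headers.

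Here, peaks were intersected with each other (at least 1 bp) and with protein-coding genes of GENCODE version 44 lifted to GRCh37, and sequence features were read from GRCh37, in Python 3.11.15 with pandas 2.3.3, numpy 2.4.6 and SciPy 1.17.1. H2A change was log2 of RPKM plus 0.05, over genes with a mean of at least 0.1, which understates the change of low genes. Of 20318 genes in the table, 19544 matched by identifier. BED starts were moved to 1-based positions. Functions were tested on simulated data. No column of per-sample values was left unused.

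With 1 library per group no test was possible, and precision rests on the number of peaks. The regions, gene lists, measures of repeated sequence and printed windows were chosen with earlier results of these data known. Named genes were the highest-scored peak per list and chromosome, the 5 highest-scored promoter peaks per list, sites in at least 3 lists, the 3 genes with the most peaks per list, and listed genes with a peak, of which examples are given. A few genes that this rule names are not reported here. A few genes beside these were named after their values were seen: BRD1, SHANK3, COLEC12, KCNS3 for H2A, and the BPTF overlaps. Alternatives tried were score minima of 50 and 60, other overlap and promoter rules, leaving out each chromosome, ends and gaps or repeated peaks, and other H2A pseudocounts, filters and centring.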

Additional observations from a re-analysis of the deposited data

How the results depend on the processing

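Of 152 alternatives, 108 left a value within its interval, or a count within 1.5 times, 42 moved it and 2 reversed it. Leaving out any 1 of the 4 chromosomes moved none of the values it was run on. The rise in peak number from 0 to 30 min held under each alternative. It was 1.55 times for HP1γ at a score of at least 50, and for LSD1 2.5 times at 60 and 1.53 times without repeated peaks. A score of at least 50 left 40 and 62 HP1γ and 31 and 55 LSD1 peaks at 0 and 30 min, and 60 left 14, 17, 8 and 20.

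Overlap rested on few sites. HP1γ peaks kept from 0 to 30 min were 0.776% away from ends and gaps, 0.415% without repeated peaks and 0% at a score of at least 50. LSD1 peaks kept were 0.516%, 3.25% with peaks widened by 500 bp and 0%. LSD1 peaks with HP1γ at 0 min were 0.516% away from ends and gaps, 0.694% without repeated peaks, 3.40% widened and 0% at a score of at least 50, and at 30 min 2.35% widened and 0.796% without repeated peaks. Within 5 kb of a start lay 10.1%, 9.56%, 9.01% and 8.55% of peaks. At a score of at least 50, promoters held 0% and 1.61% of HP1γ peaks, and gene bodies 20% of HP1γ at 0 min, 25.8% of LSD1 at 0 min and 32.7% at 30 min. Median GC of HP1γ at 0 min was 44% in the central 300 bp. The densest window of 1 Mb held 31, 20 and 19 peaks for HP1γ at 0 and 30 min and LSD1 at 30 min, against 47, 34 and 38 in 5 Mb, as narrower windows must hold no more. The median H2A change at 30 min was -0.045 with a pseudocount of 0.5, and turned to 0.080 at 30 min and 0.025 at 60 min when centred on all genes, by construction. The cause of the other shifts was not tested.

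Leaving out repeated peaks, and ends and gaps for the ratio, was chosen after seeing the data. No paired analysis was possible because each antibody and time had 1 library. Peak number, overlap and score depend on depth, which was unknown for the HP1γ, LSD1 and BPTF libraries, and no value here separates hormone from library.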
